A study of Mus musculus with 10 samples.

Results

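Teratomas that carried the P81S form of VHL were compared with teratomas that carried wildtype VHL, gene by gene, on the arrays whose titles name these cDNAs. These are 7 of the 10 arrays of the series, 4 P81S and 3 wildtype, and each array gave log2 values for 18820 genes that a probe set names singly. All tumours grew from J1 embryonic stem cells of strain Sv/129 that lacked mouse Vhl (Vhl-/-) and expressed a human VHL transgene from a cDNA. The transgene encoded P81S VHL in 4 tumours, R167Q VHL in 3 and wildtype VHL in 3. The cells of each line were injected under the skin of both flanks of female nude (nu/nu) mice, so that 2 tumours can share a host, and tumours were taken at a maximum dimension of 1 cm. The labels call the P81S tumours apoptosis-resistant and the R167Q and wildtype tumours apoptotic.

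The P81S teratomas read higher than the wildtype teratomas for genes of the synapse, ion channels, transmitter receptors, astrocytes and some forebrain factors. They read lower for genes of meiosis, the piRNA pathway, Nodal signalling, ribosome production and DNA replication. Of 25 synaptic vesicle genes 22 were higher and 0 lower, and of 23 meiosis genes 0 were higher and 19 lower. All 22 measured genes of the protocadherin beta cluster were higher, and 26 of 27 ribosome biogenesis genes were lower. Few or no genes of oligodendrocytes, skeletal muscle, most epithelia and most blood cells passed an adjusted p of 0.05. This does not show equal levels, since in some of these lists the P81S arrays lay far apart. Skeletal muscle genes had a median difference of 0.58 log2, with list means of 6.25 to 8.16 log2 in P81S. Over all 18820 genes, 34.7% passed an adjusted p of 0.05 in this comparison, 17.2% as higher (3230 genes) and 17.5% as lower (3300 genes), and each count below is to be read against these shares.

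The VHL protein recognises the substrates of a ubiquitin ligase, best known among them the alpha subunits of hypoxia-inducible factors, which it sends to degradation while oxygen is present. Cells that lose it accumulate these factors and raise their target genes. A teratoma is a tumour in which pluripotent cells differentiate without order into tissues of all germ layers, with nervous tissue commonly the most abundant, while part of the cells can stay undifferentiated or enter a germ-cell-like state. Vessels, blood cells and stroma come in part from the host. A whole-tumour measurement therefore mixes many cell types, and fewer cells of a type cannot be told apart from less RNA per cell.

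Limits of the groups as models bear on all values. The P81S tumours came from 2 cell clones with 2 arrays each, without a label for the clone of an array, and no source used here says that tumours of 1 genotype came from separate cultures or mice. What the p-values measure is thus the spread between these tumours and no more. The level of mouse Vhl was 8.49, 8.77, 8.53 and 8.90 log2 in the P81S arrays, 6.83, 6.93 and 7.21 in R167Q, and 6.94, 6.95 and 6.85 in wildtype, a P81S minus wildtype difference of 1.76 ± 0.15 log2 (SE; 3.38-fold, adjusted p = 3.08e-05). Whether its probes lie in the disrupted part of the gene or bind the human transgene is not known here, so this gene checks no label. The Y-linked genes Eif2s3y, Uty and Kdm5d averaged 9.46, 8.80 and 8.58 log2 in P81S, against 4.54, 4.21 and 4.65 in wildtype, and the part of this difference in other results was not tested. P81S replicate 1 stood apart in epithelial and matrix genes, with values given beside those results. Differences are P81S mean minus wildtype mean on the log2 scale with their standard error, folds are ratios of the deposited values, and adjusted p-values come from limma with the Benjamini-Hochberg method over all genes. Genes were named by a rule, and those that only complete a short count were chosen after their values were seen.

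Genes of chromosomes 8 and 11 were shifted as whole chromosomes, which touches every list with members there. Over the more highly expressed genes, the median deviation from the wildtype mean on chromosome 8 was 0.17, 0.21, 0.16 and 0.17 log2 in the 4 P81S arrays in replicate order, 0.02, 0.09 and -0.03 in R167Q, and -0.07, -0.02 and 0.10 in wildtype. On chromosome 11 it was -0.37, -0.35, -0.02 and -0.03 in P81S, -0.02, 0.04 and -0.09 in R167Q, and 0.04, -0.02 and -0.02 in wildtype. The chromosome 8 shift was thus present in all 4 P81S teratomas, and the chromosome 11 shift in replicates 1 and 2. On chromosome 8, 252 of 893 genes were higher (28.2%) and 105 lower (11.8%); on chromosome 11, 151 of 1469 were higher (10.3%) and 367 lower (25%). The X chromosome had medians of 0.09, 0.19, 0.01 and 0.07 log2 in the P81S arrays.

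**Figure D1:**
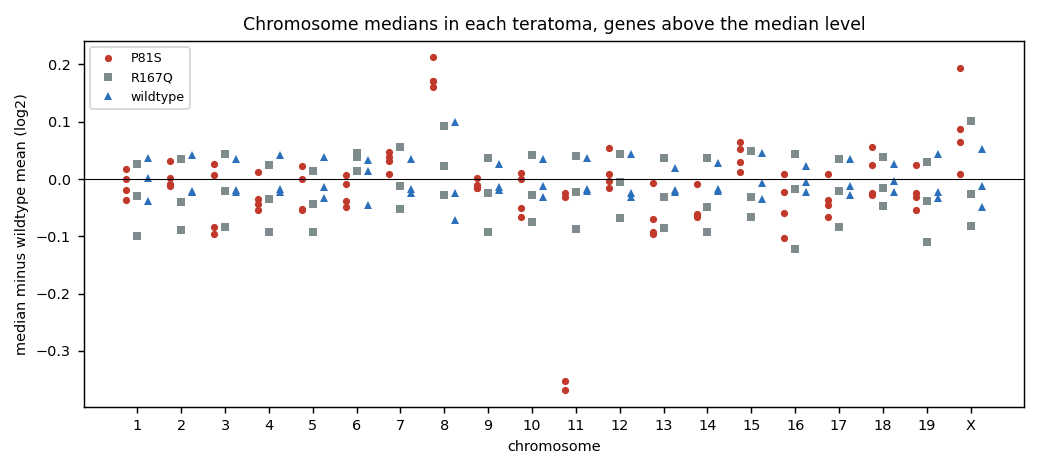
Median log2 deviation from the wildtype mean per chromosome (horizontal axis) for each array (points, coloured by VHL form), over genes above the median level. Chromosome 8 lies at 0.16 to 0.21 in the 4 P81S arrays, and chromosome 11 at -0.37 and -0.35 in P81S replicates 1 and 2 and at -0.02 and -0.03 in replicates 3 and 4.

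The shifts ran along the chromosomes and were not confined to a segment. Chromosome 11 was split into 10 bins of equal gene number, and the bin medians were -0.19 to -0.61 log2 in P81S replicates 1 and 2 in every bin. In replicates 3 and 4 they were -0.23 to 0.10, with the lowest in the sixth bin, from Pipox to Trim37, at -0.20 and -0.23. On chromosome 8 the bin from Ripor1 to Pdpr had medians of 0.10, 0.01, -0.02 and 0.01 in P81S replicates 1 to 4, and the other 9 bins ranged from 0.08 to 0.35. Their part in the results for single genes was not tested. For named genes on these chromosomes the difference after subtraction of each array's chromosome median is given as well, and for many of the lists the count without chromosomes 8, 11 and Y.

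**Figure D2:**
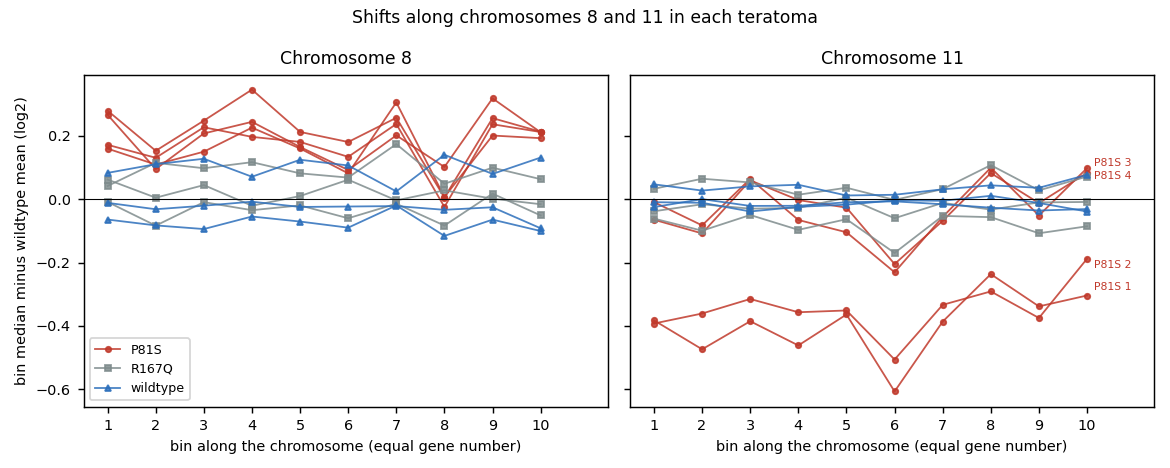
Median log2 deviation from the wildtype mean in 10 bins of equal gene number along chromosomes 8 and 11 (horizontal axis, bin order), 1 line per array. On chromosome 11 the lines of P81S replicates 1 and 2 lie at -0.61 to -0.19 in all 10 bins, and on chromosome 8 those of all 4 P81S arrays lie at 0.08 to 0.35 in 9 of 10 bins.

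Meiosis and germ-line genes were among the lists with the most members lower in P81S. Meiosis makes haploid germ cells, with homologous chromosomes paired by the synaptonemal complex. Of 23 measured meiosis genes, 19 were lower and 0 higher, with a median difference of -1.99 log2 against 0.01 over all genes. The count of 19 lower genes was also found with each array left out in turn, and without chromosomes 8, 11 and Y it was 15 of 19. Spo11, Msh5, Mei1 and Msh4 did not pass, at -0.26, -0.22, -0.13 and -0.07 log2.

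Stra8, which licenses germ cells to enter meiosis, read 5.60, 6.18, 5.48 and 4.77 log2 in P81S, against 8.24, 8.78 and 9.11 in wildtype. It fell by 3.2 ± 0.37 log2 in P81S (9.22-fold, adjusted p = 0.000117). Sycp1, the central rod of the synaptonemal complex, read 5.21, 5.39, 5.30 and 4.12 log2 in P81S, against 8.10, 8.28 and 8.40 in wildtype, a fall by 3.26 ± 0.27 log2 (9.56-fold, adjusted p = 2.71e-05). In neither gene did the groups overlap, which holds for 40.6% of all genes in this comparison (19.9% with P81S higher and 20.7% with P81S lower). Smc1b, the meiotic cohesin subunit, fell by 3.46 ± 0.28 log2 (11-fold). Meioc, which stabilises the meiotic programme, fell by 4.05 ± 0.39 log2 (16.6-fold), and by 3.86 after subtraction of the chromosome 11 median. Sycp3, of the lateral elements, fell by 2.56 log2 (5.90-fold).

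The piRNA pathway, in which PIWI proteins and Tudor-domain proteins silence transposons in germ cells, had 10 of 17 members lower and 2 higher, with a median of -0.80 log2. Mael, a piRNA factor of the perinuclear germ granule, read 6.74, 8.10, 7.49 and 5.80 log2 in P81S, against 10.46, 10.39 and 10.29 in wildtype. It fell by 3.35 ± 0.41 log2 (10.2-fold, adjusted p = 0.000158), and the P81S arrays spanned a wider range than the wildtype arrays without reaching them. Tdrd12, a Tudor-domain protein of the pathway, fell by 3.02 ± 0.29 log2 (8.12-fold), Mov10l1, the helicase that feeds precursors to PIWI proteins, by 2.29 ± 0.20 log2 (4.88-fold), and Piwil2, a PIWI protein, by 1.75 log2 (3.35-fold). The 2 higher members were Tdrkh at 0.64 ± 0.22 log2 and Tdrd7 at 0.35 ± 0.12 log2, and neither passed without P81S replicate 4. Germ cell factors had 13 of 25 members lower and 1 higher, at a median of -0.72 log2. Prdm14, which sets up primordial germ cells, fell by 1.57 log2 (2.96-fold), the alkaline phosphatase Alpl by 2.09 ± 0.35 log2 (4.24-fold), and the germ-cell helicase Ddx4 by 2.02 ± 0.35 log2 (4.06-fold). The 1 higher member was Nanos1, at 0.78 ± 0.20 log2, which did not pass without wildtype replicate 2. Kit, the stem cell factor receptor of germ cells, mast cells and melanocytes, differed by -0.34 log2 and did not pass (adjusted p = 0.203).

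The E-box CACGTG is a known feature of some germ-line promoters, so the promoters of the member with the largest fall among those that hold it are shown for the piRNA and meiosis lists, with the motif in capitals. Both are RefSeq sequences of assembly GRCm38.p6 on the minus strand, from 250 bases before the start of the gene to 50 after it. That of Mael lies at chr1:166238695-166238994 and that of Sycp1 at chr3:102936051-102936350.
Mael: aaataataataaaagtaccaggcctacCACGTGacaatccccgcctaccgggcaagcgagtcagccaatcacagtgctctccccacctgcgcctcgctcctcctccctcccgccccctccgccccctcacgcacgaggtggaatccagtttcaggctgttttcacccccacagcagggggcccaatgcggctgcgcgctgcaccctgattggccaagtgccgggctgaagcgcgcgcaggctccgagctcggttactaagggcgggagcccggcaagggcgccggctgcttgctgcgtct
Sycp1: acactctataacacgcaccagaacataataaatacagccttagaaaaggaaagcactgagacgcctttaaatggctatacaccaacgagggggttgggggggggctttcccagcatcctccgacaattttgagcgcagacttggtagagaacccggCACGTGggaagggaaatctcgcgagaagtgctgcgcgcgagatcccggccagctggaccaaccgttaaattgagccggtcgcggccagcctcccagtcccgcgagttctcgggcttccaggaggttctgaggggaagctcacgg
The motif begins at position -223 in Mael and -94 in Sycp1, counted from the start of the gene. The Mael window holds 24 CpG dinucleotides and the Sycp1 window 21. Searched on both strands in windows of the same length, CACGTG was present in 6 of 20 meiosis promoters (30.0%), 6 of 15 piRNA promoters (40%) and 2 of 19 promoters of germ cell factors (10.5%), against 8.43% of all 14739 promoters. Outside the germ line, it was found in 5 of 23 promoters of ribosome biogenesis genes (21.7%) and 4 of 20 of nucleotide synthesis genes. Both shares were above that of germ cell factors. It was found in 2 of 15 promoters of chromatin assembly genes, 2 of 25 of hypoxia-inducible factor targets and 1 of 17 of centromere proteins. The counts were 0 of 21 for synaptic vesicle genes and 0 of 12 for postsynaptic genes. A raised share was thus not particular to the germ-line lists. These matches describe the sequence and do not show binding.

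Among genes of the early embryo, several of Nodal signalling were lower in P81S. Nodal is a TGF-beta family ligand that keeps the epiblast pluripotent and forms the primitive streak, Tdgf1 is its co-receptor, Foxh1 its transcription factor, and Lefty1 and Lefty2 its secreted inhibitors and targets. Of 19 members of the Nodal and streak list, 9 were lower, 0 were higher and 10 did not pass, at a median of -0.79 log2. Nodal read 6.81, 7.20, 6.58 and 5.74 log2 in P81S, against 9.03, 8.77 and 9.42 in wildtype, and fell by 2.5 ± 0.31 log2 (5.64-fold, adjusted p = 0.000181). Lefty1 read 7.30, 7.68, 7.23 and 5.19 log2 in P81S, against 10.10, 10.20 and 10.52 in wildtype, and fell by 3.43 ± 0.48 log2 (10.7-fold, adjusted p = 0.000349). The 2 genes separated the groups in every array, with P81S replicate 4 the lowest in both.

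Tdgf1 fell by 3.39 ± 0.54 log2 (10.5-fold), Lefty2 by 2.93 log2 (7.60-fold) and Foxh1 by 2.76 ± 0.31 log2 (6.79-fold). The ligand Nodal, this co-receptor and factor, and the Lefty inhibitors were thus lower. Wnt8a, a streak Wnt ligand, fell by 1.80 ± 0.22 log2 (3.49-fold), and Fgf4, the growth factor of the inner cell mass, by 1.76 log2 (3.40-fold). Among the genes with the next largest falls over the whole array were several that are mostly silent outside germ cells, placenta or stem cells. Fbxo15, an F-box protein of stem cells, fell by 3.97 ± 0.39 log2 (15.7-fold), Morc1, a germ-line transposon silencer, by 3.70 log2 (13-fold), the cancer-testis gene Magea5 by 3.71 log2 (13.1-fold), and the X-linked homeobox genes Rhox5 and Rhox9 by 3.40 and 3.5 log2 (10.6-fold and 11.3-fold). Endoderm genes had 2 higher and 4 lower of 22, with 1 lower without wildtype replicate 1 and 8 without P81S replicate 1. Foxa2 and Sox17, both endoderm factors, differed by -0.27 and -0.26 log2 and did not pass.

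Genes that make ribosomes were lower almost as a body. Of 27 ribosome biogenesis genes, 26 were lower and 0 higher, at a median of -0.97 log2, and Noc2l alone did not pass, at -0.38 log2. Without chromosomes 8, 11 and Y the count was 22 of 23. Npm1, the abundant nucleolar chaperone, read 11.65, 12.11, 12.23 and 11.78 log2 in P81S, against 12.59, 12.75 and 12.74 in wildtype, and fell by 0.75 ± 0.13 log2 (1.68-fold, adjusted p = 0.00105), or by 0.56 after subtraction of the chromosome 11 median. Its groups did not overlap. Gnl3, a nucleolar GTPase of stem cells, fell by 1.48 ± 0.14 log2 (2.78-fold). Nhp2 and Dkc1, both of the complex that guides pseudouridylation, fell by 1.68 ± 0.18 log2 (3.21-fold) and 1.25 ± 0.26 log2 (2.38-fold), and Nhp2 by 1.49 after subtraction of the chromosome 11 median.

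The protein parts of these machines moved the same way by smaller amounts. Cytosolic ribosomal proteins had 56 of 73 members lower and 0 higher (median -0.43 log2), and mitochondrial ribosomal proteins 54 of 74 lower and 0 higher (median -0.54 log2). Averaged over the family, cytosolic ribosomal proteins read 11.49, 11.51, 11.48 and 11.41 log2 in P81S, against 11.96 or more in all 3 wildtype arrays, and the groups did not overlap. The member with the largest fall was Rpl10l, a testis-type relative of Rpl10, with 6.03, 7.36, 6.11 and 6.22 log2 in P81S, against 9.38, 9.67 and 10.17 in wildtype. It fell by 3.31 ± 0.32 log2 (9.91-fold, adjusted p = 5.23e-05), while Rpl10 itself differed by -0.00 log2 and did not pass. The mitochondrial member Mrpl15 fell by 1.15 ± 0.10 log2 (2.22-fold).

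Lower members also filled the RNA polymerase family, with 22 of 27 lower (median -0.59 log2), the exosome and Utp families, with 18 of 19 (median -0.79 log2), and the nucleoporins, with 18 of 19 (median -0.72 log2), each with 0 higher. Polr3g, a subunit of RNA polymerase III found in stem cells, fell by 1.83 ± 0.22 log2 (3.56-fold), Polr1b, of RNA polymerase I, by 1.15 log2 (2.22-fold), and Nup43, of the nuclear pore scaffold, by 1.82 ± 0.17 log2 (3.54-fold). Proteasome subunits had 33 of 49 lower (median -0.39 log2), led by the testis-type subunit Psma8, which fell by 2.69 ± 0.23 log2 (6.45-fold). Spliceosome families had 25 of 48 lower and 1 higher (median -0.36 log2). Chaperones had 13 of 21 lower and 2 higher (median -0.40 log2), and 8 lower without P81S replicates 3 and 4. The abundant forms Hspa8 and Hsp90aa1 differed by 0.01 and -0.15 log2 and did not pass (adjusted p = 0.92 and 0.19). Transfer RNA synthetases had 8 of 17 lower (median -0.30 log2), and 2 without P81S replicates 3 and 4.

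Myc family factors, which drive ribosome genes in many tissues, were not lower together. Mycn, the form of stem cells and neural progenitors, read 9.12, 9.40, 8.82 and 8.29 log2 in P81S, against 10.03, 9.86 and 10.12 in wildtype. It fell by 1.10 ± 0.22 log2 (2.14-fold, adjusted p = 0.00241), and the groups did not overlap. Myc differed by -0.06 log2 and did not pass (adjusted p = 0.752). Mxi1 and Mxd1, which oppose Myc on its sites, were the 2 higher members of 13, at 0.41 ± 0.11 and 0.62 ± 0.12 log2; Mxi1 did not pass without wildtype replicate 3.

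**Figure D3:**
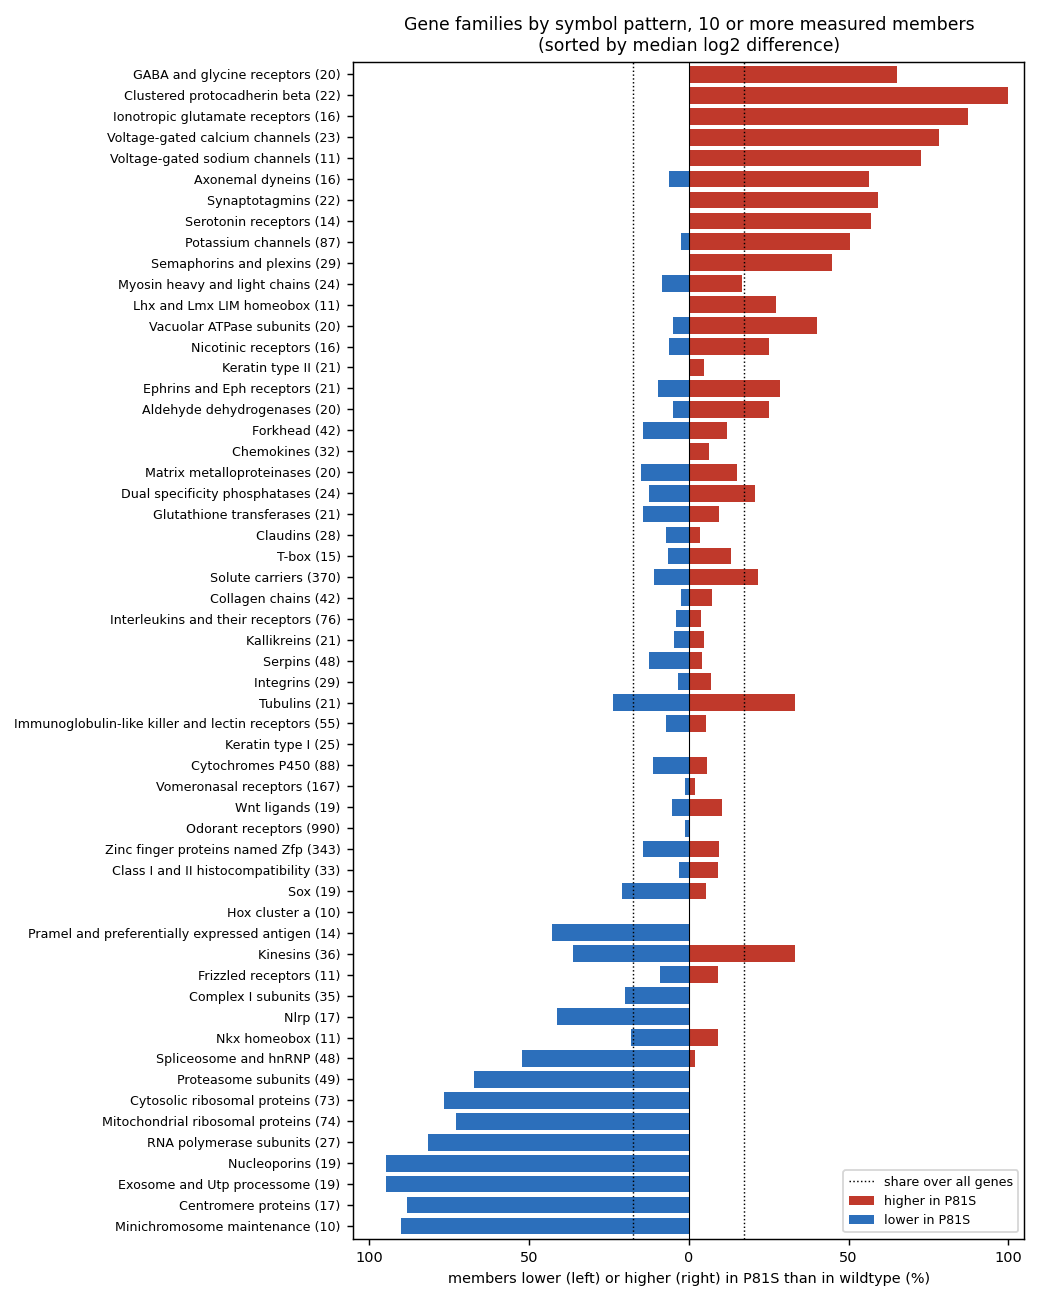
Share of measured members lower (left) and higher (right) in P81S against wildtype, in percent, for 56 gene families with at least 10 members, with dotted lines at the shares over all genes (17.5% lower and 17.2% higher). Ribosomal, proteasome, nucleoporin, Mcm and Cenp families extend to the left, and the protocadherin beta cluster and channel families to the right.

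Genes of DNA replication and the centromere were lower too. All but 1 of 10 Mcm genes were lower (median -1.41 log2) and 15 of 17 Cenp genes (median -1.12 log2), with 0 higher in both families. Mcm10, which helps the replicative helicase start, read 7.72, 7.96, 7.39 and 6.56 log2 in P81S, against 9.26, 9.23 and 9.79 in wildtype, and fell by 2.02 ± 0.30 log2 (4.06-fold, adjusted p = 0.000428). Cenph, an inner kinetochore protein, read 6.21, 7.01, 6.38 and 5.86 log2 in P81S, against 8.53, 8.64 and 8.71 in wildtype, and fell by 2.26 ± 0.23 log2 (4.79-fold, adjusted p = 6.02e-05). Neither gene had a P81S array as high as a wildtype array.

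Promoters of cell-cycle genes often carry the CCAAT box, so the windows of these 2 genes, the members with the largest falls in their families among those holding it, are shown with the box in capitals. They are RefSeq windows of assembly GRCm38.p6 on the minus strand, at chr2:5012742-5013041 for Mcm10 and chr13:100775850-100776149 for Cenph.
Mcm10: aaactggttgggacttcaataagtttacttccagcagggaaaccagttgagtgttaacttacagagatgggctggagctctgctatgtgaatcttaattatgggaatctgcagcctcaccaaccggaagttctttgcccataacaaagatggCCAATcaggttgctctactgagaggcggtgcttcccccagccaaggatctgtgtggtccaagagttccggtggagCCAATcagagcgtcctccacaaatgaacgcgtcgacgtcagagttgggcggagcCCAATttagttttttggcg
Cenph: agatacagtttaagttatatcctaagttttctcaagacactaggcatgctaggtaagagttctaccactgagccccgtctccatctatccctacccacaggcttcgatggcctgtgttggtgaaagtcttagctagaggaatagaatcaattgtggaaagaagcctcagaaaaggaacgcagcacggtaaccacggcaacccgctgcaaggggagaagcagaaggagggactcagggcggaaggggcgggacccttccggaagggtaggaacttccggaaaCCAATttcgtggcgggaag
The Mcm10 window holds 3 copies of CCAAT on the printed strand and the Cenph window 1. On either strand, CCAAT was present in 8 of 9 Mcm promoters (88.9%), 11 of 17 Cenp promoters (64.7%) and 11 of 15 promoters of chromatin assembly genes (73.3%), against 38.3% of all promoters. The box is a short sequence, and its presence alone says nothing of which factor acts there.

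Synthesis of DNA precursors was lower as well. Nucleotide synthesis had 17 of 22 members lower and 0 higher (median -0.72 log2), and 14 of 17 without chromosomes 8, 11 and Y. Rrm2, the regulated subunit of ribonucleotide reductase, fell by 1.39 ± 0.25 log2 (2.61-fold), and Cad, the first enzyme of pyrimidine synthesis, by 1.38 ± 0.24 log2 (2.60-fold). One-carbon metabolism had 6 of 15 lower and 2 higher, and 5 of 13 lower and 1 higher without those chromosomes. Shmt1, the cytosolic enzyme that moves carbon units from serine to folate, fell by 2.11 ± 0.25 log2 (4.30-fold), or by 1.91 after subtraction of the chromosome 11 median, whereas Aldh1l2, a mitochondrial folate enzyme, was higher by 1.21 log2 (2.31-fold). Cell-cycle inhibitors split. Cdkn2a, which encodes p16 and p19ARF, fell by 1.66 log2 (3.17-fold) while Cdkn1a and Cdkn1b, the inhibitors p21 and p27, rose by 1.06 and 0.58 log2 (2.09-fold and 1.5-fold). The list of 21 had 6 higher and 4 lower, and 2 lower without P81S replicates 3 and 4.

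The lists of chromatin genes had more lower than higher members. Chromatin assembly had 13 of 17 members lower and 0 higher (median -1.05 log2), with Hells, a remodeller needed for DNA methylation, down by 2.62 ± 0.30 log2 (6.16-fold) and Chaf1a, of the replication-coupled histone chaperone, by 1.42 log2 (2.67-fold). The Polycomb list had 12 of 23 lower and 1 higher (median -0.39 log2), with 8 lower without wildtype replicate 1 and 10 of 18 without chromosomes 8, 11 and Y. Eed and Suz12, core subunits of the complex that methylates histone H3 at lysine 27, fell by 1.28 ± 0.16 and 1.18 ± 0.14 log2 (2.43-fold and 2.27-fold), and Suz12 by 0.99 after subtraction of the chromosome 11 median. Cbx7, a reader of that mark prominent in stem cells, fell by 1.74 ± 0.19 log2 (3.35-fold), and Phc3 was the 1 higher member at 0.72 ± 0.11 log2.

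In the DNA methylation list, 4 of 16 genes were lower and 1 higher. Dnmt3l, the catalytically inactive partner of the de novo methyltransferases in germ and stem cells, read 6.66, 7.57, 5.91 and 5.14 log2 in P81S, against 9.36, 9.26 and 9.81 in wildtype. It fell by 3.15 ± 0.50 log2 (8.91-fold, adjusted p = 0.000666), and the ranges lay apart. Dnmt3b, which places new methylation, fell by 1.89 ± 0.29 log2 (3.71-fold) and Uhrf1, which recruits the maintenance enzyme, by 1.39 log2 (2.63-fold), with Trim28, a co-repressor that silences transposons, the remaining lower member at -0.83 log2. Dnmt1, the maintenance enzyme itself, differed by -0.27 log2 and did not pass (adjusted p = 0.155). Tet3, a dioxygenase that oxidises methylcytosine, rose by 0.57 ± 0.11 log2 (1.49-fold).

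Genes of the synapse were higher in P81S nearly throughout. Synaptic vesicle genes had 22 of 25 members higher and 0 lower, at a median of 1.32 log2, and 18 of 21 without chromosomes 8, 11 and Y. Slc17a7, Cplx2 and Cplx1 did not pass, at 0.24, 0.46 and 0.96 log2. The list mean was about 10 log2 in P81S replicate 1 and 10.25, 10.32 and 10.48 in replicates 2 to 4, against 9.10, 8.95 and 8.85 in wildtype. Postsynaptic genes had 18 of 21 higher and 0 lower (median 1.16 log2), with Homer1, Homer2 and Nptx2 not passing at -0.00, 0.17 and 0.27 log2. With the mean of its probe sets in place of the brightest, Homer2 rose by 0.74 log2 (1.67-fold, adjusted p = 0.00305).

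Snap25, a fusion protein of vesicle release, read 12.17, 12.73, 12.59 and 12.65 log2 in P81S, against 11.25, 11.47 and 10.84 in wildtype, and rose by 1.35 ± 0.22 log2 (2.55-fold, adjusted p = 0.000727). Slc17a6, the vesicular glutamate transporter of subcortical neurons, read 11.14, 11.33, 11.33 and 10.73 log2 in P81S, against 9.14, 9.01 and 9.04 in wildtype, and rose by 2.07 ± 0.17 log2 (4.2-fold, adjusted p = 2.53e-05). Its cortical relative Slc17a7 was among the 3 members that did not pass. Camk2a, the kinase of the postsynaptic density, read 10.12, 10.52, 10.16 and 11.24 log2 in P81S, against 8.68, 9.01 and 8.15 in wildtype, and rose by 1.90 ± 0.27 log2 (3.73-fold, adjusted p = 0.000389). In these 3 genes that rose, every P81S array exceeded every wildtype array. Syn1, a coat protein of the vesicle, rose by 1.58 ± 0.15 log2 (2.99-fold), the scaffold Shank1 by 1.84 ± 0.22 log2 (3.57-fold), and the release factors Unc13a and Rab3a, both on chromosome 8, by 1.96 ± 0.18 and 1.74 ± 0.16 log2 (3.90-fold and 3.34-fold), or by 1.79 and 1.56 after subtraction of the chromosome median.

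**Figure D4:**
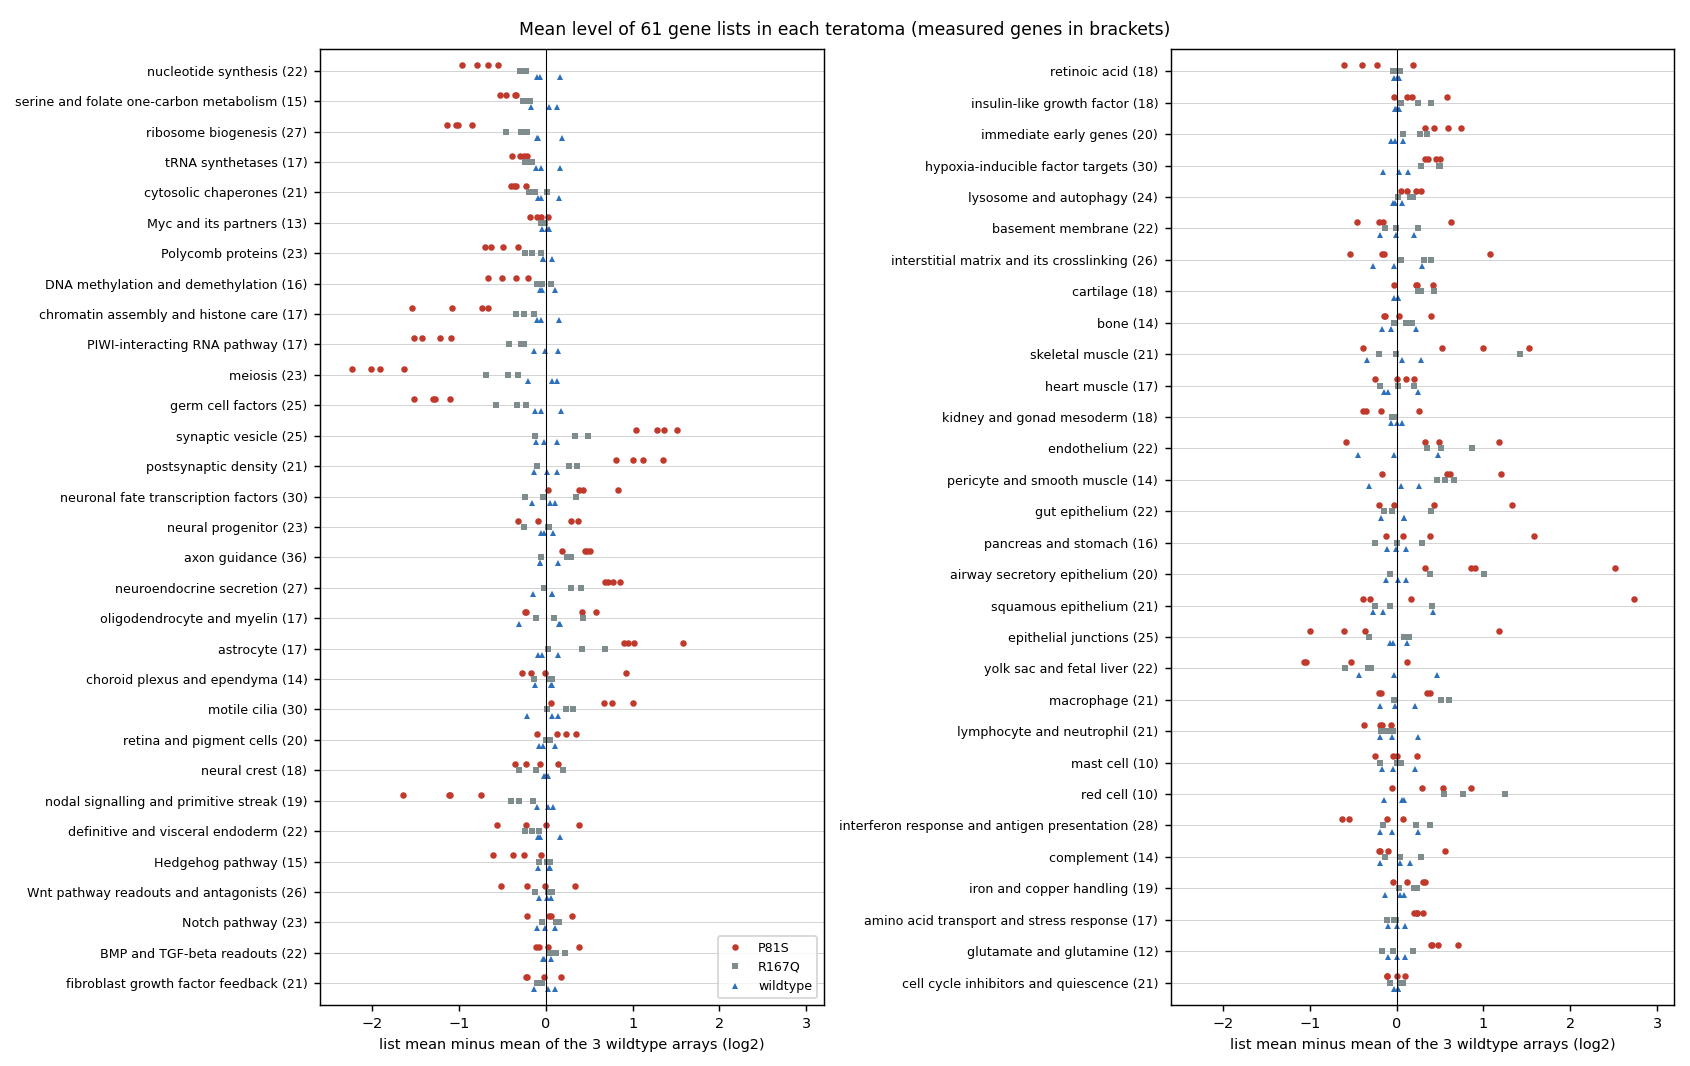
Mean level of each of 61 gene lists in each array minus its mean over the wildtype arrays (log2, horizontal axis), with P81S, R167Q and wildtype arrays as points. The synaptic vesicle list lies to the right and the meiosis and ribosome biogenesis lists to the left in all 4 P81S arrays, and P81S replicate 1 stands alone to the right in squamous, airway and matrix lists.

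Ion channels rose by class. Voltage-gated calcium channel genes had 18 of 23 members higher (median 1.08 log2), sodium channel genes 8 of 11 (median 1.08 log2) and potassium channel genes 44 of 87 with 2 lower (median 0.73 log2; 1 to 4 lower when 1 array was left out). Cacna1i, a low-threshold calcium channel of neurons, read 8.39, 8.27, 8.47 and 8.66 log2 in P81S, against 6.30, 6.10 and 5.61 in wildtype, and rose by 2.45 ± 0.22 log2 (5.45-fold, adjusted p = 3.49e-05). The ranges lay well apart. Scn2a, a sodium channel of axons, rose by 1.52 ± 0.13 log2 (2.86-fold), Kcna6, a delayed-rectifier potassium channel, by 1.81 ± 0.21 log2 (3.5-fold) and Cacng2, which carries AMPA receptors to the synapse, by 1.76 ± 0.26 log2 (3.39-fold). The largest fall among channels was in Kcnk5, a background potassium channel of epithelia, by 2.51 ± 0.35 log2 (5.70-fold).

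Most classes of transmitter receptors had many higher members. GABA and glycine receptor genes had 13 of 20 members higher (median 1.30 log2), ionotropic glutamate receptors 14 of 16 (median 1.13 log2), serotonin receptors 8 of 14 (median 0.73 log2; 5 without P81S replicates 3 and 4) and nicotinic receptors 4 of 16 with 1 lower (median 0.27 log2). Without chromosomes 8, 11 and Y the nicotinic receptors had 2 of 12 higher and 1 lower, a share near the 17.2% of all genes that were higher. Gabrq, a GABA-A receptor subunit of hypothalamus and brainstem, read 9.93, 10.10, 9.89 and 9.95 log2 in P81S, against 7.28, 7.45 and 7.22 in wildtype. It rose by 2.65 ± 0.18 log2 (6.29-fold, adjusted p = 1.16e-05). Htr2a, a serotonin receptor, read 9.36, 9.44, 9.44 and 9.31 log2 in P81S, against 7.32, 7.30 and 7.20 in wildtype, and rose by 2.11 ± 0.12 log2 (4.33-fold, adjusted p = 7.62e-06). The spread within each group was small in both. The glutamate receptor genes Grik1 and Grin2b rose by 1.96 ± 0.28 and 1.93 ± 0.19 log2 (3.89-fold and 3.80-fold).

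Among the named genes were 5 known from dopamine neurons, which were named singly and do not make up a list with a count. Slc6a3, the dopamine transporter, read 10.82, 10.96, 10.65 and 9.14 log2 in P81S, 10.36, 10.84 and 10.77 in R167Q, and 6.98, 8.17 and 8.48 in wildtype. P81S minus wildtype was 2.52 ± 0.44 log2 (5.72-fold) and P81S minus R167Q was -0.26 ± 0.44 (adjusted p = 0.74). Th, which makes the dopamine precursor, rose by 1.66 ± 0.27 log2 (3.16-fold) against wildtype and differed by -0.28 from R167Q. Chrna6, a nicotinic subunit of these neurons on chromosome 8, rose by 2.49 ± 0.38 log2 (5.62-fold) against wildtype, or by 2.31 after subtraction of the chromosome median, and differed by 0.09 ± 0.38 from R167Q. Chrm5, the muscarinic receptor of the same neurons, rose by 2.36 ± 0.14 log2 (5.13-fold) against wildtype and rose by 0.86 ± 0.14 against R167Q. Ret, the receptor of glial-derived growth factors, rose by 1.81 ± 0.17 log2 (3.51-fold) against wildtype and differed by 0.37 ± 0.17 from R167Q (adjusted p = 0.155).

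Kinesins and tubulins had members in both directions. Kinesins had 12 of 36 members higher and 13 lower (median -0.05 log2). Among them the axonal motors Kif1a and Kif5a rose by 1.47 ± 0.14 and 1.29 log2 (2.78-fold and 2.44-fold), while the mitotic motors Kif20b and Kif2c fell by 1.93 ± 0.30 and 1.80 ± 0.30 log2 (3.81-fold and 3.49-fold). Tubulins had 7 of 21 higher and 5 lower (3 lower without P81S replicate 3), with the testis-type Tuba3b down by 3.38 ± 0.43 log2 (10.4-fold) and Tuba8 up by 1.24 ± 0.15 log2 (2.36-fold). A list on axon guidance had 17 of 36 higher and 2 lower (median 0.45 log2), but 10 higher without wildtype replicate 2. Semaphorins and plexins had 13 of 29 higher and 0 lower, and the netrin receptor Unc5a rose by 1.81 ± 0.19 log2 (3.51-fold).

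Factors of brain regions and neuron subtypes were higher in some families. The Dlx homeobox genes, which specify inhibitory neurons of the ventral forebrain, had 4 of 6 members higher (median 1.88 log2). Dlx1 read 9.93, 10.19, 8.91 and 10.05 log2 in P81S, against 8.16, 7.46 and 7.10 in wildtype, and rose by 2.20 ± 0.36 log2 (4.59-fold, adjusted p = 0.000778). Dlx2, Dlx5 and Dlx6 rose by 1.97 ± 0.34, 2.01 ± 0.27 and 1.78 ± 0.21 log2 (3.93-fold, 4.02-fold and 3.43-fold). Gad1, which makes the transmitter GABA, read 10.35, 10.72, 10.30 and 11.32 log2 in P81S, against 9.0, 8.63 and 8.42 in wildtype, and rose by 1.99 ± 0.33 log2 (3.98-fold, adjusted p = 0.000958). Both genes separated the groups in every array, and Gad2 rose by 1.55 ± 0.29 log2 (2.92-fold).

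Nkx2-1, a factor of the ventral forebrain that lung and thyroid also use, read 9.23, 9.35, 7.11 and 7.89 log2 in P81S, against 6.31, 6.41 and 5.49 in wildtype, and rose by 2.33 ± 0.49 log2 (5.02-fold, adjusted p = 0.00343). P81S replicates 1 and 2 were the higher pair. Tbr1, a factor of cortical excitatory neurons, read 7.26, 7.04, 6.65 and 7.93 log2 in P81S, against 5.23, 5.29 and 5.61 in wildtype, and rose by 1.84 ± 0.27 log2 (3.59-fold, adjusted p = 0.00044). The groups did not overlap in either gene. Fezf2 and Emx2, of the cortical field, rose by 1.88 ± 0.43 and 1.58 ± 0.34 log2 (3.68-fold and 2.98-fold), Six3, of the anterior forebrain, by 1.32 ± 0.24 log2 (2.5-fold), Zic1, of dorsal neural tube and septum, by 1.49 ± 0.32 log2 (2.80-fold), and Isl1, of motor, striatal and sensory neurons, by 1.44 ± 0.26 log2 (2.71-fold). Several of these genes belong to families with members in both directions. That of Six3 had 1 of 5 higher and 1 lower, with differences from -2.17 to 1.32 log2. That of Zic1 had 2 of 4 higher and 1 lower, with a lowest difference of -0.89 log2. The Nkx family had 1 of 11 higher and 2 lower (median -0.19 log2, lowest -1.14 log2), and the T-box family of Tbr1 2 of 15 higher and 1 lower. Over all 30 neuronal fate factors 8 were higher and 1, Neurog1, was lower by 0.80 ± 0.19 log2. The higher count was 6 without wildtype replicate 2 and 12 without P81S replicate 4.

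Hox and neural progenitor genes had few members that were higher. The 4 Hox clusters together held 0 higher members among 10, 9, 9 and 8 measured genes of clusters a to d, and 3 lower members, Hoxb1, Hoxd3 and Hoxd4. The last 2 differed by -0.63 and -0.45 log2, and Hoxd3 did not pass without wildtype replicate 2 and Hoxd4 without P81S replicate 2 or 4 or wildtype replicate 1 or 3; cluster b held 4 lower members without P81S replicate 3. Hoxb1, the hindbrain and streak gene on chromosome 11, read 6.77, 7.44, 7.22 and 6.18 log2 in P81S, against 8.33, 8.28 and 8.63 in wildtype, and fell by 1.51 ± 0.26 log2 (2.86-fold, adjusted p = 0.00101), or by 1.32 after subtraction of the chromosome median. Neural progenitor genes had 3 of 23 higher and 2 lower, at a median of 0.01 log2, with 1 higher without wildtype replicate 3 and 4 lower without P81S replicate 1. Sox2, of neural and pluripotent stem cells, read 11.85, 11.89, 11.57 and 11.51 log2 in P81S, against 12.13, 12.04 and 12.20 in wildtype, and fell by 0.41 ± 0.10 log2 (1.33-fold, adjusted p = 0.00857). Pax6 and Nes, markers of neural progenitors, differed by 0.24 and 0.07 log2 and did not pass (adjusted p = 0.285 and 0.88).

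Glia differed by type. Astrocyte genes had 14 of 17 members higher and 0 lower, at a median of 0.88 log2, and 10 higher without wildtype replicate 2. Agt, angiotensinogen, which astrocytes make in brain, read 11.95, 11.80, 12.26 and 12.97 log2 in P81S, against 9.65, 9.69 and 10.38 in wildtype. It rose by 2.34 ± 0.34 log2 (5.06-fold, adjusted p = 0.000396), or by 2.16 after subtraction of the chromosome 8 median, and the ranges did not meet. The glutamate transporter Slc1a2 rose by 2.12 ± 0.16 log2 (4.33-fold), Gfap, the astrocyte filament on chromosome 11, by 1.73 ± 0.35 log2 (3.32-fold) and by 1.92 after subtraction, and Fxyd1, a sodium pump regulator of glia and choroid plexus, by 2.35 ± 0.41 log2 (5.09-fold). Aqp4, the astrocyte water channel, differed by 0.67 ± 0.25 log2 and did not pass (adjusted p = 0.0563). Oligodendrocyte genes had 0 of 17 members higher and 0 lower, at a median of 0.12 log2, and 2 higher without P81S replicate 2. Olig1 and Olig2, the lineage factors, differed by 0.26 and -0.23 log2 (adjusted p = 0.535 and 0.567).

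Secretory neurons and neuropeptides were part of the rise, with 17 of 27 neuroendocrine genes higher and 0 lower (median 0.95 log2). Tac1, the substance P precursor, rose by 1.90 ± 0.27 log2 (3.72-fold), Resp18, of peptide granules, by 1.60 ± 0.24 log2 (3.04-fold) and Chga, a granule matrix protein, by 1.21 log2 (2.32-fold). Hpcal4, a neuronal calcium sensor, rose by 2.64 ± 0.26 log2 (6.24-fold) and Lgi1, a secreted synaptic organiser, by 2.35 ± 0.18 log2 (5.11-fold).

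The clustered protocadherins were higher without exception. They are adhesion proteins that neurons express in combinations as a surface identity, and the beta genes stand side by side on chromosome 18. All 22 measured members were higher, with differences of 0.81 to 1.67 log2 and a median of 1.29, and all 22 passed with each array left out. Pcdhb2, the member with the largest difference, read 8.97, 8.86, 8.88 and 9.04 log2 in P81S, against 8.05, 7.10 and 6.64 in wildtype, and rose by 1.67 ± 0.28 log2 (3.19-fold), with wildtype replicate 1 closest to the P81S arrays. Pcdhb15 rose by 1.52 ± 0.16 log2 (2.86-fold). The family mean was 7.63, 7.83, 7.75 and 7.59 log2 in P81S, 6.71, 7.02 and 6.60 in R167Q, and 6.80, 6.36 and 6.26 in wildtype. The beta genes resemble each other in sequence, and signal shared between them cannot be separated here. Pcdh11x, a non-clustered protocadherin on the X chromosome, rose by 2.52 ± 0.33 log2 (5.75-fold).

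**Figure D5:**
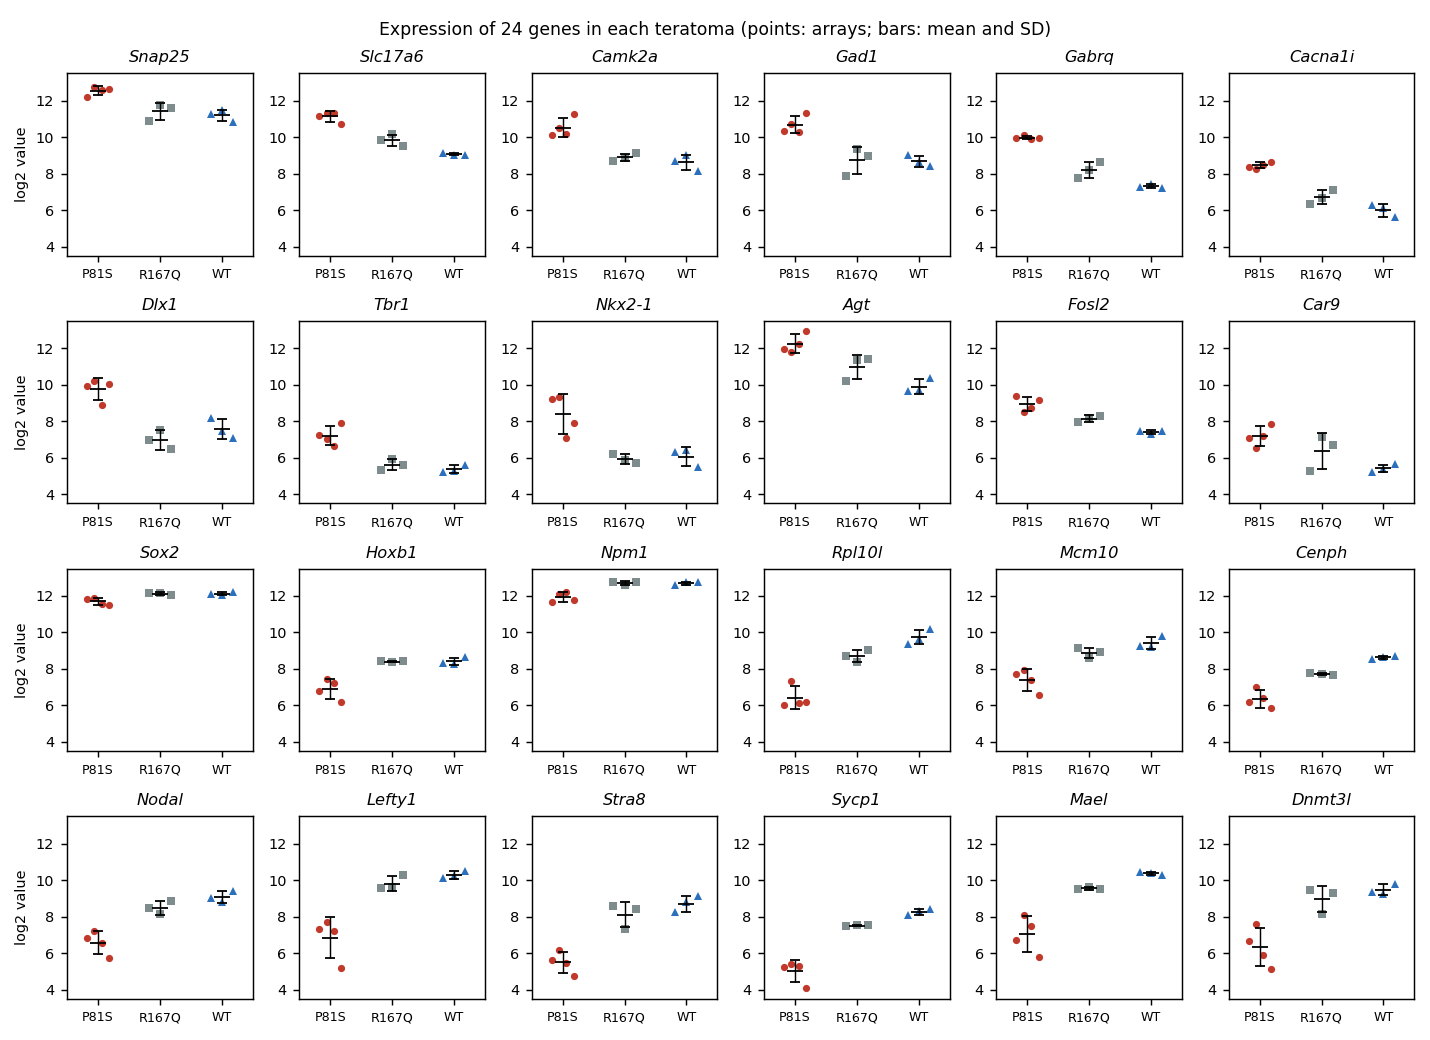
Log2 level of 24 genes in each teratoma (points) with group mean and SD (bars), for P81S, R167Q and wildtype. Neural genes such as Gabrq, at 9.89 to 10.10 in P81S and 7.22 to 7.45 in wildtype, stand above wildtype, and growth and germ-line genes such as Cenph, at 5.86 to 7.01 in P81S and 8.53 to 8.71 in wildtype, stand below it.

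Counts of cilia genes depended on which arrays were included. Motile cilia beat on ependyma and airway cells, both of which a teratoma can hold. Of 30 motile cilia genes 16 were higher and 2 lower (median 0.68 log2), but 9 were higher without wildtype replicate 3 and 5 without P81S replicates 3 and 4. Axonemal dyneins had 9 of 16 higher and 1 lower, and 2 higher in each of these settings; 21 motile cilia genes were higher without P81S replicates 1 and 2. Dnaic1, an outer dynein arm chain, read 8.34, 7.21, 8.29 and 8.10 log2 in P81S, against 6.92, 6.57 and 6.51 in wildtype, and rose by 1.32 ± 0.27 log2 (2.49-fold, adjusted p = 0.00293), with P81S replicate 2 close to wildtype replicate 1. The testis dynein Dnah8 fell by 2.09 ± 0.33 log2 (4.26-fold). Foxj1, the master factor of motile cilia on chromosome 11, differed by 0.38 log2 (adjusted p = 0.168), or by 0.57 after subtraction of the chromosome median. Choroid plexus and ependyma genes had 4 of 14 higher and 4 lower, with 2 higher without wildtype replicate 1 and 0 lower without wildtype replicate 3.

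Signalling lists had mixed members. In the Wnt list 2 of 26 were higher and 5 lower (1 higher without P81S replicate 1, and 9 lower without P81S replicates 1 and 2; 2 of 20 higher and 3 lower without chromosomes 8, 11 and Y), with Rspo2, a secreted enhancer of Wnt signals, up by 1.47 ± 0.30 log2 (2.78-fold) and its receptor Lgr4 down by 0.88 log2 (1.84-fold). Axin2, a general Wnt target on chromosome 11, differed by -0.26 log2 (adjusted p = 0.216), or by -0.07 after subtraction of the chromosome median. Hedgehog genes had 0 of 15 higher and 4 lower (median -0.30 log2), with 1 lower without P81S replicate 4 and 9 without P81S replicates 1 and 2. In the Notch list, 2 of 23 were higher, 3 lower, and 0 lower without wildtype replicate 2 but 6 without P81S replicate 1; the ligand Jag2 rose by 0.98 log2 (1.98-fold). The FGF list had 3 of 21 higher and 4 lower, with Etv5, a target of the pathway, down by 1.10 log2 (2.15-fold) and Fgf2 up by 1.26 log2 (2.40-fold). BMP and TGF-beta readouts had 7 of 22 higher and 2 lower (median -0.11 log2). Insulin-like growth factor genes had 7 of 18 higher and 2 lower (median 0.22 log2), and 4 of 12 higher and 2 lower without chromosomes 8, 11 and Y.

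Retinoic acid genes had 6 of 18 members lower and 1 higher (median -0.21 log2). The binding proteins Crabp1 and Crabp2 fell by 1.34 ± 0.15 and 1.71 log2 (2.53-fold and 3.26-fold) and the degrading enzyme Cyp26b1 by 1.12 log2 (2.17-fold), while Aldh1a1, a synthesising enzyme, rose by 1.64 ± 0.34 log2 (3.12-fold). Immediate early genes had 11 of 20 higher and 2 lower (median 0.69 log2), with 4 lower without P81S replicate 1, and 9 of 16 higher and 1 lower without chromosomes 8, 11 and Y. Fosl2, a subunit of AP-1, read 9.37, 8.51, 8.73 and 9.17 log2 in P81S, against 7.47, 7.29 and 7.46 in wildtype, and rose by 1.54 ± 0.20 log2 (2.90-fold, adjusted p = 0.00021), without overlap. Fos rose by 1.36 ± 0.21 log2 (2.57-fold), Egr1 differed by 0.46 log2 and did not pass (adjusted p = 0.106), and Klf2, a flow-responsive factor of endothelium that stem cells also express, on chromosome 8, fell by 1.52 ± 0.26 log2 (2.87-fold), or by 1.70 after subtraction of the chromosome median.

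Targets of hypoxia-inducible factors, the substrates of VHL, did not move as one list. Of 30 members 13 were higher and 2 lower (median 0.33 log2) against wildtype, with 9 to 14 higher when 1 array was left out and 7 without P81S replicates 3 and 4; 4 were lower without P81S replicate 1. Without chromosomes 8, 11 and Y, 10 of 26 were higher and 2 lower. Against R167Q, 0 were higher and 4 lower (median -0.02 log2), where 22.5% of all genes passed, 12.4% as higher and 10.1% as lower. Car9, a membrane carbonic anhydrase and a target that VHL loss raises in kidney cancer, read 7.09, 6.56, 7.18 and 7.88 log2 in P81S, 5.27, 7.12 and 6.71 in R167Q, and 5.24, 5.40 and 5.64 in wildtype. P81S minus wildtype was 1.75 ± 0.41 log2 (3.36-fold, adjusted p = 0.00628), and P81S minus R167Q was 0.81 (adjusted p = 0.188). The P81S arrays lay above all wildtype arrays and overlapped R167Q.

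Vegfa, the vessel growth factor, rose by 1.5 ± 0.22 log2 (2.83-fold) against wildtype and differed by 0.43 from R167Q (adjusted p = 0.193), and Adm, a vasodilator peptide, rose by 1.34 log2 (2.54-fold) against wildtype and differed by 0.48 from R167Q. Plod2, a collagen-modifying enzyme, and Pdk1, which turns pyruvate from the mitochondrion, fell by 0.68 and 0.39 log2 (1.61-fold and 1.31-fold) against wildtype, and their differences from R167Q were -0.96 and -0.58. Slc2a1, the glucose transporter, and Egln3, an oxygen sensor, differed by -0.26 and 0.26 log2 from wildtype and did not pass (adjusted p = 0.075 and 0.197). Slc2a1 passed as lower after quantile normalization (adjusted p = 0.0212) and after median centring (adjusted p = 0.042). Egln1, another oxygen sensor of the list and not counted among the named genes, rose by 0.94 log2 (1.92-fold, adjusted p = 0.000295). After subtraction of the chromosome 8 median its rise was 0.77 log2.

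The core of the hypoxia response element is ACGTG, and the promoter of Car9 is shown as that of the member with the largest rise among those holding it, with the match in capitals; it reads CACGT because the element lies on the opposite strand. The window is RefSeq sequence of assembly GRCm38.p6 at chr4:43506776-43507075 on the plus strand.
Car9: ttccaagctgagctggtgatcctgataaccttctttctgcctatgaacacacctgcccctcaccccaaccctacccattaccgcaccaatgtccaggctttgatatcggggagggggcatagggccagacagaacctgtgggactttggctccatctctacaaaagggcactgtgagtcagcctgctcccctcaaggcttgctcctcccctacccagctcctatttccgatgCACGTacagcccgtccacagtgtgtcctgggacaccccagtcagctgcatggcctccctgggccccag
The match begins at position -18. ACGTG, which every CACGTG also contains, was present on either strand in 13 of 25 promoters of this list (52.0%), against 21.8% of all promoters. In the other lists and families searched the share ran from 0.0% in ionotropic glutamate receptors to 53.3% in the piRNA list, with 52.9% in the Cenp family. A share of this size was thus not particular to the hypoxia list. That list is made of known targets, so its share describes the list and not the tumours.

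The lysosome and autophagy list had 9 of 24 members higher and 3 lower (median 0.15 log2), with 6 higher without wildtype replicate 2 and 5 without P81S replicates 3 and 4. Without chromosomes 8, 11 and Y, 5 of 17 were higher and 3 lower, at a median of 0.003 log2. Gabarapl1 and Map1lc3a, which tag autophagic membranes and are abundant in neurons, rose by 1.02 and 1.09 log2 (2.02-fold and 2.12-fold), and Atp6v1g2, the neuronal subunit of the proton pump, by 1.69 ± 0.25 log2 (3.23-fold). Mt3, the brain metallothionein on chromosome 8, rose by 1.64 log2 (3.12-fold), or by 1.47 after subtraction of the chromosome median. Slc7a11, the cystine-glutamate exchanger, rose by 1.84 ± 0.25 log2 (3.58-fold), and Asns, which makes asparagine, fell by 0.85 log2 (1.80-fold). Grb10, an imprinted inhibitor of insulin signalling on chromosome 11, rose by 1.15 log2 (2.22-fold), or by 1.34 after subtraction of the chromosome median, whereas Igf2, the imprinted growth factor, differed by 0.16 log2 (adjusted p = 0.844).

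Epithelial and matrix genes set P81S replicate 1 apart from the other P81S teratomas. The squamous list averaged 9.66 log2 in P81S replicate 1, 6.54, 7.09 and 6.62 in replicates 2 to 4, and 6.66, 6.77 and 7.34 in wildtype. The airway list averaged 9.57 in replicate 1, 7.38, 7.96 and 7.91 in the others, and 6.94, 7.16 and 7.07 in wildtype. Krt5, the basal keratin, read 11.77, 7.34, 8.78 and 7.31 log2 in P81S and differed from wildtype by 0.64 on average (adjusted p = 0.636). Interstitial matrix genes averaged 10.09 in replicate 1, and 8.49, 8.88 and 8.86 in replicates 2 to 4, against 8.99, 8.75 and 9.32 in wildtype. Epithelial junction genes averaged 9.29 in replicate 1, and 7.51, 7.75 and 7.11 in replicates 2 to 4, against 8.07, 8.04 and 8.23 in wildtype, and Cdh1, the epithelial cadherin, read 10.98, 9.20, 9.10 and 7.82 log2 in P81S and differed from wildtype by -0.76 on average (adjusted p = 0.325), or by -0.94 after subtraction of the chromosome 8 median. Replicate 1 was thus the highest array of all in each of these lists.

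Calls in these lists were few. Airway genes had 4 of 20 members higher and 0 lower, at a median of 1.05 log2, and 8 higher without P81S replicate 2. Their list mean was higher in each of the 4 P81S arrays than in any wildtype array. The R167Q arrays, at 7.44, 6.98 and 8.07 log2, overlapped the P81S arrays. Squamous genes had 2 of 21 higher, interstitial matrix 1 of 26 (and 6 lower without P81S replicate 1), and type I and type II keratins 0 of 25 and 1 of 21. Epithelial junctions had 1 of 25 lower, and 12 lower in the analysis without P81S replicate 1. Reg3g, an antibacterial lectin of gut, read 11.82, 9.22, 9.68 and 9.54 log2 in P81S and rose by 3.02 ± 0.63 log2 (8.12-fold). Muc5ac, a mucin of stomach and airway, read 10.27, 6.22, 6.80 and 6.55 in P81S and differed by 2.22 ± 0.77 log2 (4.65-fold, adjusted p = 0.0447), and by 2.43-fold without replicate 1. Lor, of cornified skin, rose by 1.89 log2 (3.70-fold). Outside these lists, Clu, a secreted chaperone of the complement list, rose by 2.19 log2 (4.58-fold) and read 11.87, 10.75, 11.15 and 11.95 log2 in P81S.

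Mesoderm, vessels and blood contributed few calls. Skeletal muscle genes had 0 of 21 higher and 0 lower (5 higher without P81S replicate 2), with list means of 7.17, 6.25, 8.16 and 7.64 log2 in P81S, against 6.91, 6.70 and 6.30 in wildtype. Cartilage genes had 3 of 18 higher (1 without wildtype replicate 1, and 1 of 15 without chromosomes 8, 11 and Y), but Col2a1 and Acan, the major matrix genes of cartilage, differed by -0.39 and -0.36 log2 and did not pass (adjusted p = 0.109 and 0.321). Kidney and gonad genes had 4 of 18 lower and 0 higher (2 lower without wildtype replicate 3), including Wt1 and Pax8, which fell by 1.40 and 1.73 log2 (2.64-fold and 3.31-fold). Lama1, a laminin of early basement membranes, fell by 1.54 log2 (2.92-fold), the only lower gene of 22 in the basement membrane list, which had 4 lower without P81S replicate 1. Cnn1, of smooth muscle, rose by 2.05 log2 (4.13-fold).

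Endothelial genes had 1 of 22 higher and 1 lower (median 0.39 log2), and 9 higher without P81S replicate 2. The 2 that passed lie on chromosomes 8 and 11, so without these and Y the count was 0 higher and 0 lower of 18. Pecam1, the endothelial adhesion molecule CD31, on chromosome 11, fell by 1.40 ± 0.41 log2 (2.65-fold, adjusted p = 0.02), or by 1.21 after subtraction of the chromosome median. Plvap, of vessel fenestrae, on chromosome 8, rose by 0.92 log2 (1.89-fold), and after subtraction differed by 0.74 and did not pass (adjusted p = 0.0945). Pecam1 did not pass without wildtype replicate 3, nor Plvap without wildtype replicate 1 or 2 or P81S replicate 1, 3 or 4. Kdr, the main VEGF receptor, differed by 0.85 log2 (adjusted p = 0.121). Macrophage genes had 0 of 21 higher and 1 lower, with Csf1r at 0.46 log2 (adjusted p = 0.0951), and lymphocyte and neutrophil genes 0 of 21 higher and 3 lower (1 without P81S replicate 2). Ptprc, found on all white cells, differed by 0.39 log2 (adjusted p = 0.188). Interferon genes had 7 of 28 lower and 1 higher (median -0.34 log2), with 2 lower without wildtype replicate 2. Ddx58, the RNA sensor RIG-I, and Irf1 fell by 1.67 ± 0.18 and 1.38 ± 0.16 log2 (3.18-fold and 2.60-fold), Irf1 by 1.19 after subtraction of the chromosome 11 median. Alas2, of haem synthesis in red cells, rose by 2.72 ± 0.69 log2 (6.59-fold) against wildtype and differed by -0.09 ± 0.69 from R167Q. Odorant receptors, which these tissues should lack, had 17 calls among 990 members (1.72%), 4 higher and 13 lower.

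The R167Q teratomas give a second reference for the same P81S arrays. Because the P81S arrays enter both comparisons, the values stand side by side and are not independent. Against R167Q 4234 genes passed, 2333 higher and 1901 lower. Synaptic vesicle genes had 23 of 25 higher against R167Q and 22 against wildtype, postsynaptic genes 18 and 18 of 21, and protocadherin beta genes 20 and 22 of 22. Meiosis genes had 17 of 23 lower against R167Q and 19 against wildtype, and nucleotide synthesis 11 and 17 of 22. Mitochondrial ribosomal proteins had 18 of 74 lower against R167Q and 54 against wildtype, and motile cilia 8 and 16 of 30 higher. For single genes, Gabrq rose by 1.78 log2 against R167Q and 2.65 against wildtype, Slc17a6 by 1.30 and 2.07, Snap25 by 1.12 and 1.35, and Dlx1 by 2.78 and 2.20. Lama1 differed by -0.31 from R167Q and by -1.54 from wildtype.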

How the data were processed

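Each array's deposited values are log2 expression levels, 1 per probe set, which the authors made with RMA and Partek, per the submitters' processing notes, without a stated version or setting. No scanner file was read, so signal over background is not known, and precision is limited by how few arrays there are. Of 35556 probe sets, 21218 name 1 gene and 1881 several by the platform annotation, and of a gene's probe sets the brightest on average over all 10 arrays was kept, for 18820 genes. Chromosomes were looked up in RefSeq (GRCm38.p6). Probe sequences were not read, and signal shared within a gene family cannot be separated.

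All 10 arrays entered 1 model with 3 group means in limma 3.58.1 (lmFit, eBayes with a variance trend, two-sided; R 4.3.3, statmod 1.5.0), with 7 residual degrees of freedom. The same fit was also run on simulated data, and the outcome is not given here. P-values were adjusted over all genes, with a threshold of 0.05. The 61 gene lists and 68 symbol families are described by counts and medians without a test, and the members, lists and rule were chosen with earlier results of these data known. Named genes are Vhl, fixed markers, up to 3 members per direction with the largest change in each list and up to 2 in each family, and those ranked 11 to 25 by change over all genes. Genes outside the rule, such as Dlx2, Dlx6, Suz12, Mov10l1, Ddx4, Resp18, Rpl10, Trim28, the Y-linked genes and the members that did not pass in a short count, were added after their values were seen. Replicate numbers were not used to pair the samples. Deviations of same-numbered P81S and wildtype arrays correlated at -0.199, -0.0133 and -0.199 across genes. The values were 0.0837, 0.179 and -0.278 for P81S and R167Q, and -0.215, 0.0305 and 0.212 for wildtype and R167Q. Deviations within groups of 3 or 4 arrays do not decide whether same-numbered arrays belong together. Alternatives were another normalization, median centring, other variance models, a filter on dim genes, averaged probe sets, replicate and clone blocks, removal of chromosome medians or of chromosomes 8, 11 and Y, and arrays left out. Promoter windows are RefSeq sequences, found for 14739 genes, in which 5 motifs were searched.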

Additional observations from a re-analysis of the deposited data

Results flagged for a closer look

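Among the 4 P81S arrays, 11 of 273 values tested (named genes, list means and chromosome medians) had 1 array far from the others. Chance alone gives such an array in about 1 of 20 groups, and 11 of 273 is no more than that. Replicate 1 was high for Muc5ac, at 10.27 log2 against 6.22 to 6.80 in the other P81S arrays, and for the mean of the complement list, at 7.42 against 6.67 to 6.77. It was low for Homer1, at 8.26 against 8.61 to 8.67, and for Hspa8, at 13.29 against 13.39 to 13.41. Replicate 2 was high for Rpl10l, at 7.36 against 6.03 to 6.22, and for Tktl1, at 6.31 against 5.16 to 5.27, and low for Nhp2, at 8.65 against 9.17 to 9.26. Replicate 3 was low for Mxd1, at 8.69 against 8.95 to 8.99. Replicate 4 was low for Slc6a3, at 9.14 against 10.65 to 10.96, and for Sycp1, at 4.12 against 5.21 to 5.39, and high for Tdrd7, at 8.43 against 8.18 to 8.22. The means of the squamous, airway, interstitial matrix and epithelial junction lists, in which replicate 1 was the highest array, were tested and were not among the 11. The groups of 3 arrays were not tested in this way.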

How the results depend on the processing

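The count of genes passing between P81S and wildtype, 6530, was 5073 to 6953 with 1 array left out, the lowest without wildtype replicate 3. It was 6683 (3102 higher, 3581 lower) after quantile normalization, 6517 (2983 higher, 3534 lower) after median centring, 4828 without P81S replicates 3 and 4, 6933 without P81S replicates 1 and 2, and 6731 with chromosome medians subtracted. Between P81S and R167Q the count of 4234 was 3336 to 4916 with 1 array left out and 2419 without P81S replicates 3 and 4; the cause of the last was not tested, and that fit has 2 fewer arrays. With the replicate number as a block, the counts were 5368 and 2952. Of 168 named genes that passed, 155 did so in all settings that held them, and 13 lost the call in at least 1. Of 209 named genes, 0 changed direction while passing. Most were named for large changes in these same arrays, so this tally does not describe all genes. Over all genes, 4540 of the 6530 calls were kept in the same direction without P81S replicates 3 and 4, and 4959 without wildtype replicate 3. Values near the floor of the arrays may understate folds, since signal over background is unknown.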

Other observations

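Several genes with large falls in P81S are germ-line copies of genes that nearly every cell uses, and 16 such pairs were listed after these values were seen, with 14 measured. The germ-line copy was lower in 13 of 14 pairs and not passed in 1, with a median difference of -2.83 log2, and the general relative was lower in 5, higher in 0 and not passed in 9, with a median of -0.12 log2. Tktl1, a relative of the sugar-phosphate enzyme transketolase, fell by 4.11 log2 (17.2-fold), and Tkt itself differed by -0.04 log2. Cyct, the testis cytochrome c, fell by 3.64 log2 (12.5-fold), and Cycs, the general form, differed by -0.08 log2. Slc25a31, a mitochondrial ADP/ATP carrier of germ cells, fell by 3.32 log2 (9.99-fold) and Slc25a5, its general relative, by 0.38 log2. Rpl39l fell by 2.97 ± 0.42 log2 (7.82-fold), and Rpl39 differed by -0.02 log2. Taf7l, a testis form of a transcription initiation factor, fell by 2.40 ± 0.27 log2 (5.28-fold) and Taf7 by 1.23 log2. Pgk2, the testis phosphoglycerate kinase, was the 1 copy that did not pass, at 0.03 log2. Members of a pair can share probe signal, and the pairs were chosen for their falls, so these values are a description.

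Gene families of the early embryo and oocyte gave smaller counts. Nlrp genes, several of which are oocyte factors, had 0 of 17 members higher and 7 lower, Rhox homeobox genes 0 of 8 higher and 4 lower, and Pramel genes 0 of 14 higher and 6 lower (3 without wildtype replicate 2). Solute carriers, the transporters of small molecules, had 80 of 370 members higher and 40 lower, and complex I of the respiratory chain 0 of 35 higher and 7 lower (3 without wildtype replicate 1).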
